A study of Drosophila melanogaster with 4 samples.

Results

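The regions described here are the stretches of the X chromosome of Drosophila melanogaster that were enriched for H3K23ac in chromatin of adult heads, away from both ends of the chromosome. They were chosen by position alone, as every deposited region on X whose midpoint lay from 2000001 to 20422827 on FlyBase release 5, which leaves out the outer 2 Mb at each end. This middle is 18.4 Mb long and makes up 82.2% of the X sequence. It held 1076 of the 9467 regions of ChIP replicate 1 (11.4%), 942 of the 9142 regions of ChIP replicate 2 (10.3%) and 2630 of the 16244 regions of the list that the authors made for the series as a whole (16.2%). Of all X regions, 81.5%, 80.3% and 86.9% fell in the middle.

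The mark was mapped by ChIP-seq, in which chromatin fragments are pulled down with an antibody and sequenced, from head nuclei of wild-type Oregon-R flies, a standard laboratory strain, with 2 ChIP samples and 2 inputs of unenriched chromatin. Flies came from population cages as mixed adults; neither an age nor a ratio of the sexes is given, and heads were separated from bodies by sieving before formaldehyde treatment, lysis of nuclei and sonication, per the labels. All samples share this genotype, stage and tissue, and a head holds neurons, glia, eye, muscle and fat cells together. Nothing in the labels says that the replicates came from separate collections, so their spread may be technical in origin, and the number of reads behind each list is not known.

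H3K23ac is the acetyl group on lysine 23 of the histone H3 tail. In flies the enzyme Enok is known to place it. Acetylation of histone tails weakens the hold of nucleosomes on DNA and is found at active promoters and gene bodies. The X is set apart from the autosomes in flies because males have a single copy: in male cells the MSL complex, with the acetyltransferase MOF, spreads over active X genes and raises their transcription by acetylating histone H4. In a sample of both sexes, X chromatin comes from single-copy male and double-copy female nuclei. The positions below carry no gene names, since the only gene table used here is of release 6 and the regions are on release 5.

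Enriched regions were sparse on the X middle. Replicate 1 had 58.4 regions per Mb and replicate 2 had 51.1, a mean of 54.8 ± 5.14 (SD, n = 2). The autosomal middles, from arms 2L, 2R, 3L and 3R taken without their outer 2 Mb in the same way and 80.6 Mb long in all, had 86.6 and 84.5 regions per Mb. The regions of the X middle summed to 2.20 Mb in replicate 1 and 1.92 Mb in replicate 2, or 11.9% and 10.4% of the X middle, against 22.3% and 21.9% of the autosomal middles. X coverage was therefore 0.504 ± 0.0422 (SD, n = 2) of the autosomal share. The X value lay below the autosomal value in both replicates, by 11.0 ± 0.796 percentage points (SD, n = 2). An exact sign-flip permutation test, two-sided, gave p = 0.5 for density, coverage, median and mean width, median and mean gap, and median score. The same exact permutation test gave p = 0.5 for the 10th and 90th percentiles of the score, and 2 replicates cannot give a smaller value. The other differences between X and autosomal middles below are descriptions and were not tested.

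The direction of the difference in density depended on the scores that were counted. Each deposited region has a score that behaves as a log2 value with an unknown zero point. When only regions scoring above the median of their whole list were kept, the X middle had 47.8 ± 4.22 regions per Mb (SD, n = 2), which was 1.31 ± 0.108 times the autosomal density, and coverage was 0.791 ± 0.0642 of the autosomal share. The X middle lacked low-scoring regions. In replicate 1 only 33 of its 1076 regions (3.07%) fell below the lower quartile of the scores of the list and 734 (68.2%) above the upper quartile; in replicate 2 these were 34 (3.61%) and 626 (66.5%) of 942. Regions above the upper quartile numbered 39.8 and 34.0 per Mb on the X middle and 13.9 and 14.4 per Mb on the autosomal middles. Regions below the lower quartile numbered 1.79 and 1.85 per Mb on the X middle and 25.6 and 24.6 on the autosomal middles.

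Scores were higher on the X middle at nearly every point of their range. The median score was 0.71 in replicate 1 and 0.69 in replicate 2, against 0.56 in both for the autosomal middles, a difference of 0.13 ± 0.0099 on the log2 scale (SD, n = 2), or 1.10-fold. At the 10th percentile the difference was 0.12 in both replicates, and at the 90th it was 0.16 in replicate 1 and 0.14 in replicate 2. At the 2nd percentile it was 0.11 and 0.10, and at the 98th 0.18 and 0.13. At the very top the order turned: the highest score on the X middle was 1.16 in replicate 1 and 1.08 in replicate 2, and on the autosomal middles 1.21 and 1.12. The lowest scores were 0.42 and 0.41 on the X middle and 0.22 and 0.16 on the autosomal middles. The highest and lowest scores are single regions, out of 1076 and 942 on the X middle and 6981 and 6815 on the autosomal middles. Extremes widen with the number of regions, so these are not a like comparison. Whether the threshold for a region differed on X was not tested, since the sources used here name neither the caller nor its threshold.

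**Figure D1:**
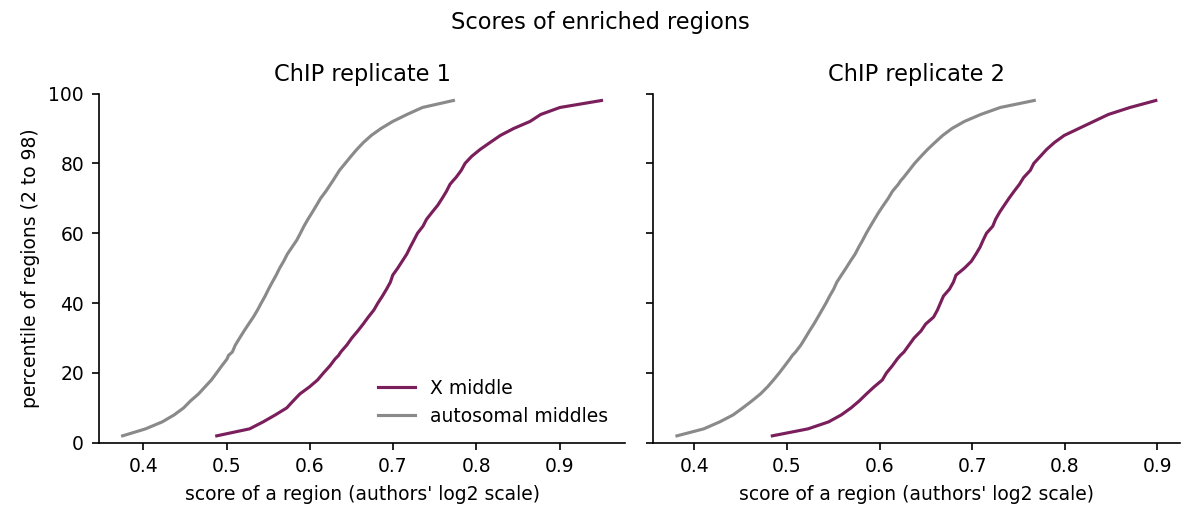
Scores of enriched regions from the 2nd to the 98th percentile, for the X middle and the autosomal middles in each ChIP replicate. The deposited scores were taken as log2 from their values, with an unknown zero point. In both replicates the X curve runs to the right of the autosomal curve over this range, with medians of 0.71 and 0.69 against 0.56.

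The shift held at a given width. Among regions of up to 2 kb the median score was 0.67 on the X middle and 0.51 on the autosomal middles in replicate 1, and 0.66 and 0.52 in replicate 2. Among regions of 2 to 5 kb it was 0.76 and 0.61 in replicate 1, and 0.74 and 0.60 in replicate 2. Wider regions scored higher within the X middle too, with a Spearman rho between width and score of 0.41 and 0.44; on the autosomal middles rho was 0.58 in both replicates. These are correlations across regions of single lists, given as descriptions.

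In the replicate lists, regions of the X middle were short, and broad ones were nearly missing. Their median widths were 1739.5 bp (replicate 1) and 1703.5 bp (replicate 2), against 1928 bp and 1936 bp on the autosomal middles. The upper end differed more: the 90th percentile was 3181 bp and 3132.5 bp on the X middle, and 4494 bp and 4439 bp on the autosomal middles. Regions of up to 2 kb made up 66.2% and 66.8% of the X lists, and 53.6% and 53.0% of the autosomal ones. Regions over 10 kb numbered 1 of 1076 and 0 of 942 on the X middle, against 85 of 6981 and 98 of 6815 on the autosomal middles, where they made up 6.79% and 7.82% of the summed width. In the combined list they numbered 33 of 2630 (1.25%) on the X middle and 530 of 11639 (4.55%) on the autosomal middles.

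The widest X region of each replicate lay at the same place. In replicate 1 it ran from 13808702 to 13820369, 11668 bp with a score of 0.90, and in replicate 2 from 13811590 to 13820631, 9042 bp with a score of 0.88. Of the replicate 1 region, 91.8% was covered in replicate 2. The third widest of replicate 1, from 13795436 to 13804736 (9301 bp, score 0.87), and the fifth widest of replicate 2, from 13839595 to 13846295 (6701 bp, score 0.67), were its neighbours. The other wide regions were also marked in the other replicate, by 1 to 4 regions each. The second widest of replicate 1, from 10608312 to 10618280 (9969 bp, score 0.80), was covered over 82.8% by 4 regions of replicate 2, the widest of them 2979 bp. The second widest of replicate 2, from 18450907 to 18459476 (8570 bp, score 0.83), was covered over 70.5% by 3 regions of replicate 1. The least shared of these 10 was the fourth widest of replicate 2, from 7099032 to 7105752 (6721 bp), at 41.0%.

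The highest-scoring shared pairs of the X middle lay both towards its ends and further inside. Among pairs of replicate regions sharing at least 50% of each, the highest mean score was at 2020341 to 2026576, which scored 1.16 in replicate 1, and 2020380 to 2026743, which scored 1.08 in replicate 2. They shared 6197 bp, nearly the whole of both. Of the 10 highest pairs, 3 started between 2 and 3 Mb, 2 between 18 and 19 Mb and 2 between 19 and 20 Mb, and the others further inside. These bins of 1 Mb held 92, 85 and 58 of the 1076 regions of replicate 1. In replicate 2 they held 69, 81 and 55 of 942. The second pair was 8416907 to 8425062 in replicate 1, at 0.98, and 8419208 to 8424178 in replicate 2, at 1.00. The third was 18461192 to 18465951 in replicate 1, at 1.02, and 18459999 to 18465681 in replicate 2, at 0.96.

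Regions of the X middle were far apart. The median gap from the end of a region to the start of the next was 6449 bp (replicate 1) and 6778 bp (replicate 2), which was 2.06 ± 0.0801 times (SD, n = 2) the autosomal medians of 3223 bp and 3206 bp. Above the list medians of the score the order of the gaps turned as well, and the X median was 0.842 ± 0.00841 of the autosomal one. Gaps under 1 kb made up 13.6% and 16.3% of all gaps on the X middle while on the autosomal middles they made up 25.2% in both replicates. Gaps over 50 kb made up 6.33% (68 of 1075) and 8.93% (84 of 941) on the X middle, and 2.72% and 2.85% on the autosomal middles. When regions less than 5 kb apart were joined into groups, 34.3% and 35.8% of X regions stood alone, against 19.5% and 19.7% of autosomal regions. Groups of 5 or more held 18.5% and 20.4% of X regions, and 41.4% and 40.6% of autosomal ones. The largest group on the X middle had 15 regions over 76364 bp in replicate 1 and 20 regions over 75684 bp in replicate 2.

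At the borders of the X middle, regions just inside and just outside had scores within the same range. The first regions inside on the telomere side were 2002112 to 2003466 (score 0.53) in replicate 1 and 1999255 to 2003590 (0.72) in replicate 2, and the last left out there were 1992214 to 1999034 (0.74) and 1996422 to 1998768 (0.68). On the centromere side the last inside were 20370579 to 20372031 (0.63) and 20376493 to 20379341 (0.75), and the first left out were 20525365 to 20527130 (0.72) and 20521217 to 20522558 (0.73). In the combined list the first and last inside were 2010762 to 2017110 (0.83) and 20421984 to 20423048 (0.51), with 1991936 to 2004482 (0.60) and 20423168 to 20424816 (0.48) just outside.

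Along the chromosome, coverage in the 184 full windows of 100 kb ranged from 0% to 46.0% in replicate 1 and from 0% to 61.1% in replicate 2. The median window was 9.83% covered in replicate 1 and 7.91% in replicate 2, with quartiles of 4.98% and 17.8%, and of 4.01% and 14.8%. Windows over 20% covered in both replicates made up 11.4% of the X middle (21 of 184), against 45.2% of the autosomal middles (364 of 805). Windows under 5% in both made up 20.1% (37 of 184) and 8.57% (69 of 805). Yet no X window was without a region in both replicates, while 16 autosomal windows were. The 7 windows empty in replicate 1 were covered by at most 6.07% in replicate 2, and the 11 empty in replicate 2 by at most 12.5% in replicate 1.

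**Figure D2:**
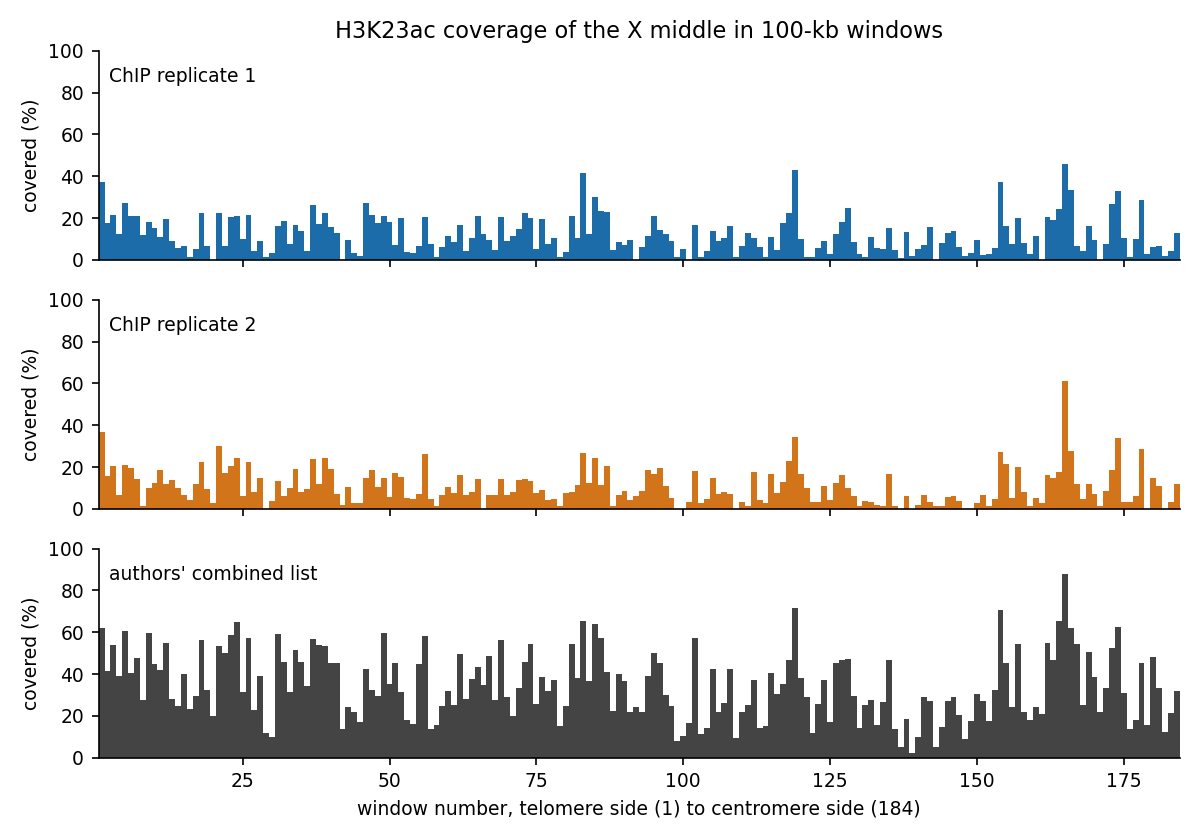
Share of each 100-kb window of the X middle covered by H3K23ac regions, in percent, for ChIP replicate 1, ChIP replicate 2 and the authors' combined list, with windows numbered from the telomere side to the centromere side. The highest bar in each panel is window 165, at 46.0%, 61.1% and 87.7%.

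How far window coverage carried over to nearby windows was measured on the X middle alone. Neighbouring windows were weakly related, with a Spearman rho of 0.27 over 183 pairs of mean coverage, and windows 200 kb apart had a rho of 0.07 over 182 pairs; windows share regions at their edges and are not independent. The 46 most covered windows of 184 held 50.7% of the covered length in replicate 1 and 51.5% in replicate 2; the 201 most covered of 805 autosomal windows held 48.4% and 48.8%. Coverage and score were nearly unrelated along the chromosome: over the 125 windows with at least 3 regions in each replicate, rho between the covered share and the median score of a window was 0.07 in replicate 1 and 0.03 in replicate 2. The median scores of these windows were themselves only weakly alike between replicates, with a rho of 0.24.

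**Figure D3:**
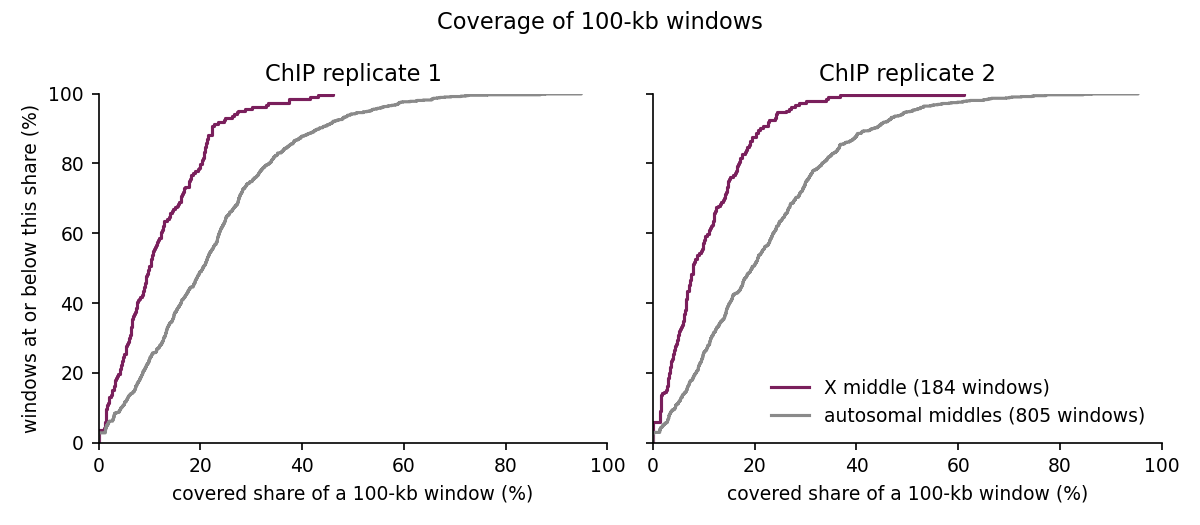
Cumulative share of 100-kb windows by the percent of the window covered, for 184 windows of the X middle and 805 windows of the autosomal middles, in each ChIP replicate. The X curves rise earlier, with medians of 9.83% and 7.91% against 20.5% and 19.5%.

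The richest stretch lay from 18.3 to 18.6 Mb. Its 3 windows were all above the upper quartile of both replicates, and together they were covered by 34.6% in replicate 1 and 35.5% in replicate 2, or 35.1% ± 0.606 (SD, n = 2), by 49 and 43 regions. Of these, 33 and 36 overlapped the other replicate. The window from 18.4 to 18.5 Mb was the most covered of the X middle, at 46.0% in replicate 1 and 61.1% in replicate 2, a gap of 15.1 percentage points and the second largest of any window. Next to it, the window from 18.5 to 18.6 Mb was at 33.4% and 27.8%.

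Another 5 stretches of 2 windows met the same rule. From 13.7 to 13.9 Mb coverage was 32.8% and 28.6%, and the Jaccard index, the length covered in both replicates over the length covered in either, was 0.513. From 19.2 to 19.4 Mb coverage was 29.8% and 26.2%, from 2.4 to 2.6 Mb 24.3% and 20.3%, from 4.2 to 4.4 Mb 20.7% and 22.4%, and from 6.5 to 6.7 Mb 24.4% and 16.9%. The index of these ranged from 0.218 for 4.2 to 4.4 Mb to 0.521 for 6.5 to 6.7 Mb, so stretches of like coverage differed in how far the replicates met. Their scores went both ways: the median score from 13.7 to 13.9 Mb was 0.63 in replicate 1 and 0.70 in replicate 2, against 0.71 and 0.69 in the whole X middle, and from 18.3 to 18.6 Mb it was 0.74 and 0.71.

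By single windows, the 10 most covered lay partly inside these stretches and partly outside. The window from 13.8 to 13.9 Mb, which holds the widest replicate regions, was at 43.2% in replicate 1 and 34.4% in replicate 2. The window from 2.0 to 2.1 Mb was at 37.4% and 36.7%, from 10.2 to 10.3 Mb at 41.6% and 26.8%, from 19.3 to 19.4 Mb at 32.9% and 34.0%, and from 17.3 to 17.4 Mb at 37.4% and 27.1%. The 10 most covered were completed by 19.7 to 19.8 Mb at 28.7% and 28.6%, 10.4 to 10.5 Mb at 30.1% and 24.3%, and 4.0 to 4.1 Mb at 22.3% and 30.0%. Of these 10 windows, 5 lay beyond 17 Mb, and replicate 1 was higher in 7. When each replicate was ranked alone, 8 of its 10 most covered windows were shared with the other.

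A stretch poor in the mark lay from 15 to 17 Mb, which was singled out after its values were seen. It was covered by 7.19% in replicate 1, with 74 regions, and by 3.41% in replicate 2, with 39 regions. Before it, from 2 to 15 Mb, coverage was 12.3% and 11.0%, and after it 13.1% and 12.4%. These means hide lower parts: 12 to 13 Mb was at 8.05% and 6.97%, and 14 to 15 Mb at 8.69% and 7.82%. In the poor stretch, 15 to 16 Mb was at 6.54% and 3.66%, and 16 to 17 Mb at 7.84% and 3.17%. It thus stood little below those parts in replicate 1 and more in replicate 2. The rule for runs of poor windows named no stretch here. The last part of the X middle, from 20 to 20.4 Mb, was at 6.11% and 6.13%. Coverage from 15 to 17 Mb was uneven, and the window from 15.4 to 15.5 Mb was at 15.3% and 16.9%. Of the few regions of replicate 2 in this stretch, 26 of 39 (66.7%) overlapped replicate 1, but only 23 of 74 (31.1%) the other way. The median scores of its regions were 0.69 and 0.70, much as in the whole X middle. This stretch was thus low in called regions. Its scores come only from regions past the authors' threshold, so they cannot show whether weaker signal lay between them.

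The longest stretches without a region in either replicate gathered in the same place. Since the bounds of 15 and 17 Mb were picked on these same lists, this restates the low coverage there and is no separate evidence. Of the 10 longest, 5 lay between 15 and 17 Mb, led by 15520270 to 15698929, at 178660 bp. The stretches from 15726645 to 15857189 (130545 bp) and from 15859251 to 15991168 (131918 bp) were parted by a single short marked piece. The others here were 16710074 to 16855989 (145916 bp) and 16203023 to 16308451 (105429 bp), and 14941744 to 15073372 (131629 bp) reached in from the left. The remaining 4 were 6258892 to 6379768, 4842966 to 4959828, 9846431 to 9954110 and 7672274 to 7779808, between 107535 bp and 120877 bp long. In the combined list, none of the 10 was empty: it held 2 to 13 regions in each, covering 1.13% (15726645 to 15857189) to 13.3% (9846431 to 9954110).

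Altogether, 48 such stretches of at least 50 kb took up 3.83 Mb, or 20.8% of the X middle. The 10 least covered windows were at 0.535% to 1.03% in the mean of the replicates. Each had a single region in a single replicate, 7 of them in replicate 1 and 3 in replicate 2. Of the 10, 4 lay between 15 and 17 Mb, the stretch picked on these same values. In no place did 3 neighbouring windows fall below the lower quartile of both replicates.

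The replicates met less often on the X middle than in the lists as a whole. Of the replicate 1 regions there, 523 of 1076 (48.6%) touched a replicate 2 region over 1 bp or more, against 67.5% of the whole list; of the replicate 2 regions, 540 of 942 (57.3%) overlapped replicate 1, against 69.7%. On the autosomal middles the shares were 68.8% and 70.5%. When at least 50% of both regions had to be shared, the X values were 28.3% and 32.3%, and the autosomal ones 44.0% and 45.0%. The length marked in both was 0.861 Mb and in either 3.25 Mb, which gives a Jaccard index of 0.265, while the 4 autosomal middles had indices from 0.435 on 2L to 0.508 on 2R.

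The index rose with coverage, and within each class of coverage it was lower on the X middle. In windows with a mean coverage under 5%, the pooled index was 0.078 over 45 X windows and 0.104 over 83 autosomal windows. At 5% to 10% it was 0.196 over 58 X windows and 0.229 over 107 autosomal windows. In windows of 10% to 20% it was 0.229 over 54 and 0.320 over 215 windows, with mean coverages of 14.8% in both. In windows of 20% or more it was 0.396 over 27 and 0.523 over 400, but there the mean coverage was 26.5% on X and 34.0% on the autosomes.

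Overlap rose less with score on the X middle than on the autosomal middles. Of the X regions above the upper quartile of scores, 52.7% of replicate 1 and 60.2% of replicate 2 overlapped the other replicate; below the lower quartile these were 42.4% (14 of 33) and 55.9% (19 of 34). On the autosomal middles the shares rose from 56.2% and 61.3% below the lower quartile to 86.7% and 85.2% above the upper one. Width moved with score there: from the lowest to the highest scores, the median width of autosomal regions went from 1549.5 bp to 3405.5 bp in replicate 1 and from 1537 bp to 3472 bp in replicate 2. On the X middle it went from 1456 bp to 1945.5 bp and from 1482.5 bp to 1941 bp. Among autosomal regions of up to 2 kb the shares did not rise with score, and were 53.2% and 58.0% below the lower quartile and 47.1% and 38.0% above the upper one. X regions found in a single replicate had median scores of 0.70 and 0.68, above the 0.58 of autosomal regions found in both.

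Width went with overlap on the X middle and on the autosomal middles. Of X regions of up to 2 kb, 36.4% and 47.2% overlapped the other replicate, of those of 2 to 5 kb 70.8% and 76.1%, and of those of 5 to 10 kb 21 of 21 and 23 of 24. Among regions of 2 to 5 kb above the upper quartile of scores, the X shares were 71.3% and 75.5% and the autosomal ones 88.8% and 87.2%. Among high-scoring regions of up to 2 kb the X shares were 34.5% and 45.7%, so X was below the autosomal share in replicate 1 and above it in replicate 2. Shared X regions were wider than single ones, with medians of 2006 bp and 1559 bp in replicate 1, and 1902 bp and 1569 bp in replicate 2.

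**Figure D4:**
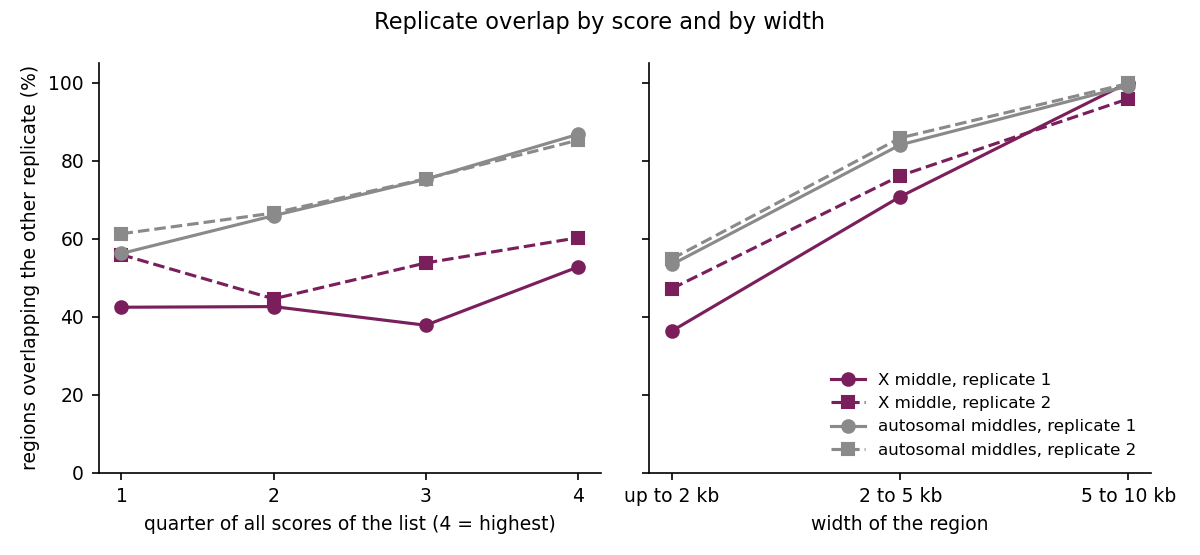
Percent of regions that overlapped the other ChIP replicate by at least 1 bp, by the quartiles of the scores of the whole list (left, 4 = highest) and by width (right), for the X middle and the autosomal middles. By score, the X points stay between 37.8% and 60.2% while the autosomal points rise to 86.7% and 85.2%; by width, both rise.

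Most single regions of the X middle were not near misses. The median distance from a replicate 1 region without a partner to the nearest region of replicate 2 was 4601 bp, and 16.1% (89 of 553) were within 1 kb; from replicate 2 it was 3147.5 bp, and 20.1% (81 of 402) were within 1 kb. Distances over 20 kb occurred for 14.1% and 12.7%, and the largest was 130545 bp. On the autosomal middles, with more regions to meet, the medians were 2439 bp and 2402 bp, and distances over 20 kb occurred for 5.19% and 5.71%.

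Where the replicates did share a region, its scores were loosely related. Over all 585 overlapping X pairs the starts differed by a median of 663 bp and the ends by 683 bp, and over the 5620 autosomal pairs by 700.5 bp and 689 bp. In the 304 X pairs sharing at least 50% of each, a choice that itself limits the offsets, these were 282.5 bp and 312 bp, and in the 3070 autosomal pairs 305.5 bp and 293 bp. Between the scores of these X pairs, rho was 0.42 and Pearson's r 0.45, against 0.54 and 0.56 on the autosomes. Over all 585 overlapping X pairs rho was 0.33.

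Over windows of 100 kb the replicates followed each other in covered share, but only weakly in median score, where rho was 0.24 over 125 windows. Covered share is a different measure from the overlap and the scores of single regions. For the covered share, rho was 0.79 and Pearson's r 0.84 over the 184 X windows, and 0.94 and 0.95 over the 805 autosomal windows, whose coverage spans a wider range. The median difference between replicates was 3.07 percentage points on X and 2.91 on the autosomes, close to each other in points. The largest X difference was from 14.7 to 14.8 Mb, at 24.9% in replicate 1 and 9.75% in replicate 2. Replicate 1 was the more covered in 109 of the 184 windows and in 15 of the 19 bins of 1 Mb. Of the 46 most covered windows of each replicate 31 were shared, and of the 46 least covered also 31. The windows with the largest differences were picked after their values were seen.

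The combined list marked much more of the X middle. It covered 34.6% of it, with 142.8 regions per Mb, against 47.1% and 144.4 per Mb of the autosomal middles; the sources used here do not say how the authors joined the replicates, and these values carry no SD. It overlapped 1066 of the 1076 replicate 1 regions and 932 of the 942 replicate 2 regions by at least 1 bp, and 792 (73.6%) and 743 (78.9%) lay wholly inside a combined region. The 10 not overlapped of each were found in that replicate alone. Of the 2630 combined regions, 449 (17.1%, exact binomial 95% interval 15.7 to 18.6) overlapped both replicate lists, 478 (18.2%) replicate 1 only, 321 (12.2%) replicate 2 only and 1382 (52.5%, 50.6 to 54.5) neither. On the autosomal middles 29.2% overlapped both and 43.7% neither. Both intervals describe counting error over regions and nothing else.

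The combined regions that neither replicate had were short. Their median width was 1373 bp and their median score 0.47, against 2116 bp and 0.48 for those with replicate 1 only, 2269 bp and 0.49 for those with replicate 2 only, and 4051 bp and 0.56 for those with both. They made up 32.9% of the combined length on the X middle, 2.10 Mb, and 20.4% on the autosomal middles. Regions in both replicates made up 36.3% and 59.1%. The narrowest X middle region was 1001 bp in the combined list and 1301 bp in each replicate list, so the lists differed in the widths they held.

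**Figure D5:**
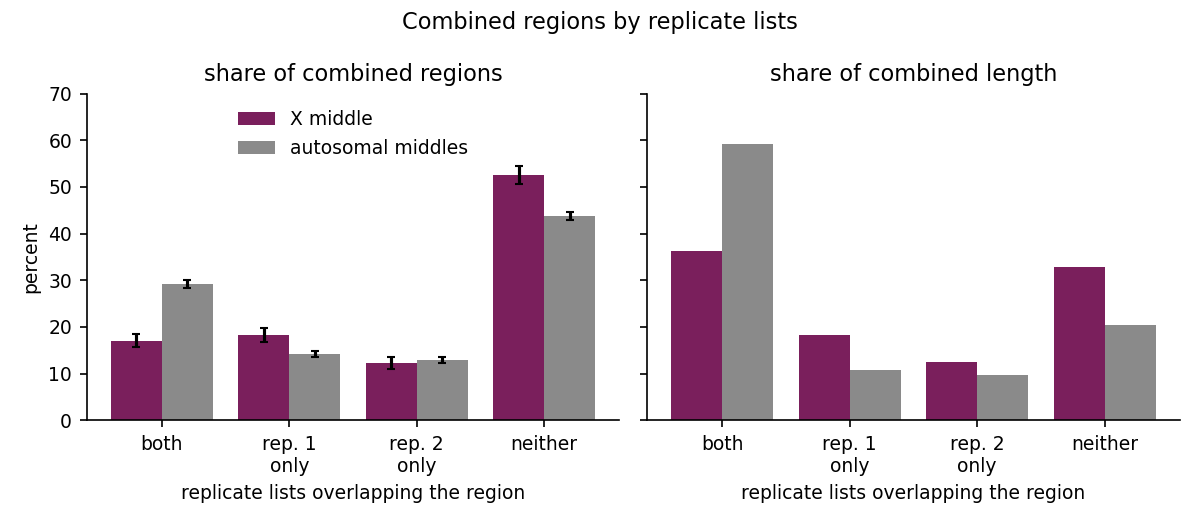
Regions of the authors' combined list by the replicate lists they overlapped, as a percent of regions (left, with exact binomial 95% intervals that cover counting over regions only) and of summed length (right), for the X middle and the autosomal middles. On X 52.5% of regions and 32.9% of length were in neither replicate, against 43.7% and 20.4%.

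The widest combined regions of the X middle joined several replicate regions each, and all 10 held regions of both. The widest ran from 10390424 to 10418696, 28273 bp with a combined score of 0.61, and held 4 regions of replicate 1 over 43.5% of its length and 7 of replicate 2 over 67.8%. The next ran from 13805100 to 13827434, 22335 bp with a combined score of 0.73, around the widest replicate regions, and was covered over 76.8% and 78.8%. The third ran from 18459864 to 18480606, 20743 bp with a combined score of 0.70, in the richest window, and was covered over 56.8% and 83.5%. Then came 6504686 to 6522470 (17785 bp, 69.8% and 39.0%) and 6679258 to 6696596 (17339 bp, 75.1% and 73.3%), which lie in the same rich stretch. The other 5 were 19727562 to 19742222, 3790464 to 3805012, 19267642 to 19282128, 2350822 to 2364250 and 18414918 to 18428058, from 14661 bp down to 13141 bp. The least shared was 2350822 to 2364250, covered over 39.8% in replicate 1 and 13.2% in replicate 2.

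The highest combined scores of the X middle belonged to very short regions that neither replicate had, save for a single broad region. The whole combined list held 27 regions with a score of at least 1. On the autosomal middles the highest was 3.30, so such scores were not particular to X. Of the 9 such regions on the X middle, 8 were in neither replicate, against 52.5% of all 2630 combined regions there, and were at most 1037 bp wide. They were led by 5421536 to 5422536 at 3.06, 3309082 to 3310082 at 2.92, 6328016 to 6329018 at 2.26 and 15167990 to 15169026 at 1.71. The others were 4710448 to 4711448 at 1.41, 6229104 to 6230104 at 1.31, 4721902 to 4722906 at 1.18 and 3120970 to 3121974 at 1.05. The first was 1338 bp from the nearest region of replicate 1 and the third 50750 bp. The exception, 2020266 to 2026784 at 1.07, is the place of the highest-scoring replicate pair, and 95.7% and 97.6% of it was covered in the replicates. Of the 10 highest, 2301404 to 2302576 at 0.95 came last and was again in neither. No replicate region on the X middle was narrower than 1301 bp, while the combined list went down to 1001 bp. The replicate lists thus held no region as narrow as the 8 short ones above, whatever the signal there.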

How the data were processed

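Bowtie 0.12.7, a read aligner, is the only tool listed, per the submitters' processing notes; the sources used here give neither the peak caller nor its threshold nor the read depth. The authors deposited lists of enriched regions, 1 per ChIP replicate and 1 for the series, with 1-based coordinates on FlyBase release 5, per the file headers. The deposited score was taken as log2 from its values: on the X middle, 2 to the power of score differences within a list was a ratio of whole numbers for 100% of regions (relative tolerance 1e-12, denominators up to 20000), which for e or 10 as base held for at most 2.02%. Its zero point is unknown, so scores were compared within lists, and between lists only by rank or correlation. The exception was the order of the highest-scoring pairs, which used the mean of the 2 replicate scores. Input samples had no file used here.

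Regions belong to a stretch by their midpoint; coverage uses the part inside it. Windows of 100 kb start at the first base of the stretch. Interval functions (Python 3.11.15, numpy 2.4.6, scipy 1.17.1) were tested on 50 simulated sets. Named were the 10 most and least covered windows, 10 longest unmarked stretches, runs of at least 2 windows above the upper or 3 below the lower quartile of both replicates, the 5 widest regions of each replicate, the 10 widest and 10 highest-scoring combined regions and the 10 highest-scoring pairs. The stretch, this rule and the comparisons were chosen with earlier results of these data known. Alternatives were a reciprocal overlap of 50%, scores above the list median, merging of regions under 1000 bp apart, other windows, whole arms as background, the combined list, and leaving out a replicate.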

Additional observations from a re-analysis of the deposited data

How the results depend on the processing

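Of 69 values under alternatives, 2 reversed, 34 moved by more than the spread between replicates (or at all, where a value had no spread) and 33 moved by less; the cause was not tested. Leaving out 1 of 2 replicates always moves a mean by less than their SD. For density, coverage, width, score and gap, the values with a replicate left out were therefore bound to fall among the 33, and show no stability. Above the median score of the list, the X to autosome ratio of 0.640 for density became 1.31 and that of 2.06 for the median gap became 0.842, which are the reversals. The same threshold gave 47.8 regions per Mb, a coverage ratio of 0.791, a median width of 1803 bp at a ratio of 0.682, a median score of 0.72 at a difference of 0.079, a median gap of 7962.5 bp, a Jaccard index of 0.247, a score rho of 0.24, a window rho of 0.74 and 19.6% of combined regions in both replicates. Merging gave 46.6 regions per Mb at a ratio of 0.728, a median width of 1809.5 bp at 0.874, a median gap of 9110.5 bp at 1.62 and an index of 0.273. In the combined list the X middle had 142.8 regions per Mb at a ratio of 0.989, 34.6% covered at 0.735, a median width of 1789 bp, a median gap of 1847 bp at 1.38 and a score difference of 0.094. A reciprocal overlap of 50% gave a mean share of 30.3% and a score rho of 0.42, and 8.10% of combined regions were covered by at least 50% in each replicate; with a replicate left out, 29.3% to 35.2% overlapped the other. Window rho was 0.75 at 50 kb, 0.85 at 200 kb and 0.81 when shifted by 50 kb. Leaving out a replicate gave ratios of 0.605 to 0.674 for density, 0.475 to 0.534 for coverage, 0.880 to 0.902 for width and 2.00 to 2.11 for the gap, and a score difference of 0.13 to 0.14. No paired analysis was possible because the inputs, which share the replicate numbers, were not analysed here; the X and autosomal middles were compared within each replicate.

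Read depth is unknown, so counting error could not be given for any region, and with 2 replicates the exact permutation test cannot go below p = 0.5. The lists hold regions past the authors' threshold only, so an unmarked stretch shows no called region, not an absence of the mark.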
